A study of Mus musculus with 6 samples.

Results

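The HoxD cluster of mouse chromosome 2 holds 9 Hox genes, Hoxd1, Hoxd3, Hoxd4, Hoxd8, Hoxd9, Hoxd10, Hoxd11, Hoxd12 and Hoxd13. They were compared between whole embryos at embryonic day 8.5 that lacked both Frizzled receptor genes Fz2 and Fz7 (genotype Fz2-/-; Fz7-/-, the double knockout) and embryos that lacked Fz7 and kept Fz2 (genotype Fz2+/+; Fz7-/-, the single knockout). A gene was a member of the set if a probe set was annotated to it and to no other gene, and it was read at its probe set with the highest mean. This gave 8 of the 9 genes on 10 probe sets, out of 18193 genes measured. Hoxd4 had no probe set of its own. Each genotype had 3 single-colour Affymetrix arrays, called replicates 1 to 3. Every embryo lacked Fz7, had a mixed C57BL6/129 background and was labelled as of mixed gender. Whether embryos were pooled, and whether litters differed between replicates, is not in the labels, and p-values measure only the spread between these samples. Embryos with an intact Fz7 were not analysed here.

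Hox genes encode homeodomain transcription factors that tell cells where they lie between head and tail. Within a cluster they are switched on in the order in which they lie, from the low-numbered end to the high-numbered end, and Wnt, FGF and retinoic acid signals with the Cdx factors drive this sequence in the posterior embryo. Frizzled proteins are the Wnt receptors at the cell surface. When Wnt signals through beta-catenin, TCF/LEF proteins carry the response to DNA.

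No HoxD gene passed the test over all genes. Hoxd8 averaged 73.2% and Hoxd3 61.1% of the single knockout level in the double knockout. Without double knockout replicate 1, an array that stood apart, Hoxd8 was at 81.9% and Hoxd3 at 89.6%, so that most of the Hoxd3 difference came from that array. The groups did not overlap for these 2 of 8 genes, with the double knockout below, as for 6.6% of all genes. An antisense RNA gene that overlaps Hoxd3, Hoxd3os1, also had a lower mean in the double knockout, and Hoxd1 and Hoxd9 differed by less than 0.05. The promoter windows of Hoxd8, Hoxd3 and Hoxd9 are shown because Hoxd8 and Hoxd3 carried the lower values and Hoxd9, the next gene after Hoxd8, did not. Each window is the 250 bases before the transcription start in the RefSeq annotation of GRCm38.p6, on the plus strand, at chr2:74704365-74704614, chr2:74711743-74711992 and chr2:74697513-74697762 for the 3 genes in that order. Capitals mark matches to CTTTGAT, a core site of TCF/LEF proteins, and to TTTATG, a site of Cdx proteins, searched on both strands.
Hoxd8: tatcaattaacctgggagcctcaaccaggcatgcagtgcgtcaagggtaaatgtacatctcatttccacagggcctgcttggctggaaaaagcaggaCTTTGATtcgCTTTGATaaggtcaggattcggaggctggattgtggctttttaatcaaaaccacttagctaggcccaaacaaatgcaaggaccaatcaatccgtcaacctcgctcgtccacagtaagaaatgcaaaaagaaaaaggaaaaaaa
Hoxd3: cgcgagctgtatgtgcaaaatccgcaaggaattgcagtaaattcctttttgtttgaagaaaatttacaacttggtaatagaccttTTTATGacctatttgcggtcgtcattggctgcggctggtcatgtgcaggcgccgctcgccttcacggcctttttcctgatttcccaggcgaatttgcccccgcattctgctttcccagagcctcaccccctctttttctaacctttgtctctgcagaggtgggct
Hoxd9: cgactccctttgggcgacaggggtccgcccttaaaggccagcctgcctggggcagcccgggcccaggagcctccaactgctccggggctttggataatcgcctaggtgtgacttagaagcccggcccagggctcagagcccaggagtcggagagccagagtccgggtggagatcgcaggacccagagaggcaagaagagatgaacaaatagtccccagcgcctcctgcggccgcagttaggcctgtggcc
The Hoxd8 window held 2 CTTTGAT sites, with first bases 153 and 143 bases before the start, and the matches did not overlap. Of 32851 promoter windows of the same length, 3.21% held CTTTGAT at least once and 0.0822% held it 2 or more times. The Hoxd3 window held 1 TTTATG site, as did the Hoxd4 window and 1 of the 2 Hoxd11 windows, against 10.8% of all windows. The Hoxd9 window held neither, and nor did that of Hoxd3os1, whose mean was also lower in the double knockout. The windows of Hoxd1, Hoxd10, Hoxd12 and Hoxd13 held neither as well. The motifs were chosen after the windows had been seen, and a match describes letters only.

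The arrays separated the genotypes at Fzd2 (Fz2), the gene whose loss divides the groups. Fzd2 read 7.30, 7.69 and 7.63 in double knockout replicates 1 to 3 and 9.86, 9.99 and 10.01 in the single knockout, as RMA values on the log2 scale. It was the only gene of 18193 with a limma adjusted p below 0.05, or 0.0055% of them. Double knockout replicate 1 stood apart, with 479 genes that lay over 1 log2 unit away from the average of the remaining arrays, against 18 to 37 genes for every other array. Values without it are given beside the results that it moved most. Of all genes, 4.96% had an unadjusted limma p below 0.05, and the groups did not overlap for 11.4%.

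Hoxd8, a gene of the trunk level, was lower in each double knockout array. Its brightest probe set read 7.70, 8.10 and 8.27 in the double knockout, against 8.52, 8.54 and 8.35 in the single knockout. The highest double knockout array lay below the lowest single knockout array, with the smallest gap between the replicates numbered 3. Hoxd8 differed by -0.45 on the log2 scale (SE 0.15, 95% interval -0.81 to -0.09, limma unadjusted p = 0.0215, adjusted p = 0.872). A second probe set was lower too, at 6.66, 7.22 and 7.22 in the double knockout and 7.45, 7.55 and 7.39 in the single knockout. Those groups did not overlap either, and the difference was -0.43 (SE 0.16). Without double knockout replicate 1 the differences of the 2 probe sets were -0.29 and -0.24. An exact two-sided permutation test gave p = 0.1 for each probe set, the smallest that 3 against 3 arrays allow.

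Hoxd3, which together with its paralogs shapes the first neck vertebrae, was low mainly in a single array. It read 6.25, 7.94 and 7.87 in double knockout replicates 1 to 3, and 8.03, 7.96 and 8.20 in the single knockout. Relative to the single knockout mean, replicate 1 stood at -1.82, whereas replicates 2 and 3 stood at -0.12 and -0.19. The groups did not overlap, but by a narrow margin, with 7.94 for the highest double knockout array and 7.96 for the lowest single knockout array. The mean difference was -0.71 (SE 0.44, 95% interval -1.77 to 0.35, limma adjusted p = 0.872), and -0.16 without double knockout replicate 1. The exact permutation p was 0.1, again the smallest possible.

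In the RefSeq annotation the Hoxd4 gene lies within the span of Hoxd3, and 2 probe sets were annotated to both genes. They count for neither gene. The brighter one read 7.53, 8.62 and 8.35 in the double knockout, against 8.64, 8.67 and 8.61 in the single knockout, and the groups overlapped by a narrow margin. The dimmer one read 7.09, 7.40 and 7.11 in the double knockout, against 7.69, 7.42 and 7.45 in the single knockout. Its groups did not overlap, again by a narrow margin. Their means differed by -0.48 and -0.32, or by -0.16 and -0.27 without double knockout replicate 1.

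Hoxd3os1 is a long noncoding RNA gene on the strand opposite to Hoxd3, and it overlaps the span of Hoxd3. Its brighter probe set read 7.003, 7.709 and 7.449 in the double knockout arrays 1 to 3, against 8.275, 8.122 and 8.084 in the single knockout. Each double knockout array lay clearly below every single knockout array. The difference was -0.77 (SE 0.18, limma unadjusted p = 0.00378, adjusted p = 0.872) and -0.58 without double knockout replicate 1. Its second probe set was dim, at 4.04 to 4.09 in the double knockout and 4.06 to 4.26 in the single knockout, with overlapping groups. The sources used here do not say which strand these probes read, so Hoxd3os1 and overlapping transcripts cannot be told apart by them.

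Hoxd1, at the low-numbered end of the cluster, and Hoxd9 bracket the genes above. Hoxd1, known in mice from sensory neurons, read 9.48, 9.29 and 9.63 in the double knockout and 9.60, 9.23 and 9.43 in the single knockout. The arrays of the genotypes were interleaved, and the difference was 0.05 (95% interval -0.25 to 0.34). Hoxd9, which acts in the posterior trunk and the limb, read 8.85, 8.78 and 9.20 in the double knockout, against 8.96, 8.98 and 8.83 in the single knockout. Its difference was 0.02 (95% interval -0.26 to 0.30), and the highest and the lowest of the 6 arrays both came from the double knockout. The sign of these small differences turned with the arrays left out: Hoxd1 differed by -0.03 and Hoxd9 by -0.11 without double knockout replicate 3.

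**Figure D1:**
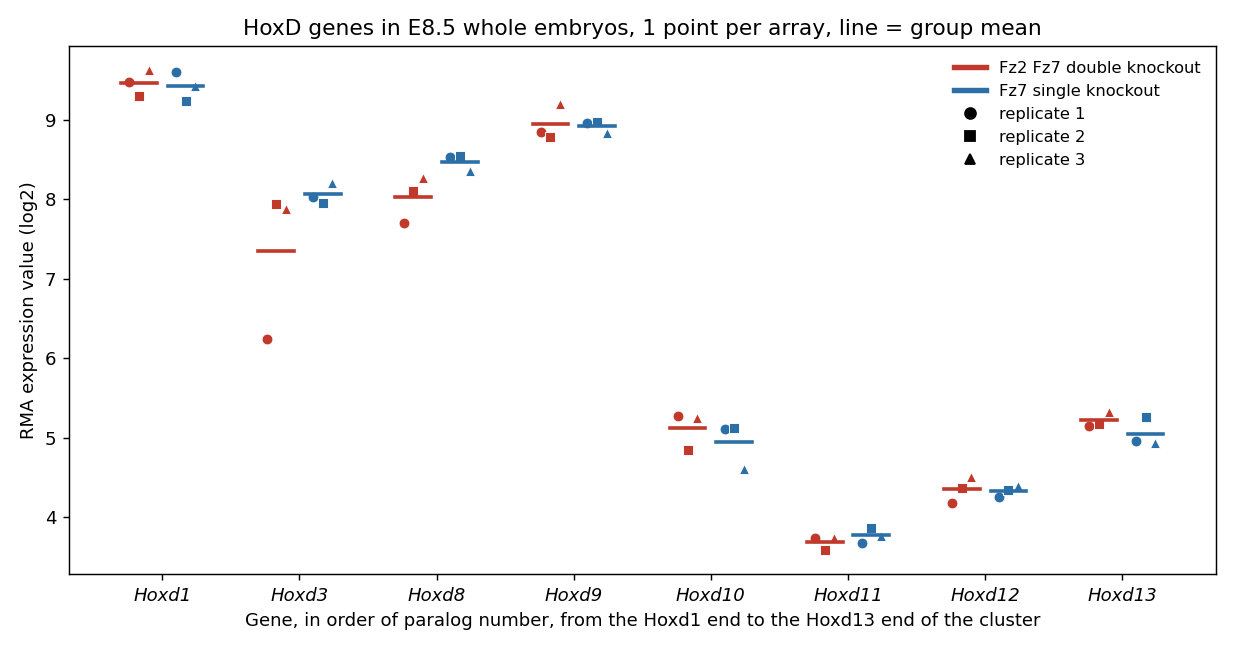
RMA values (log2, vertical axis) of the 8 HoxD genes in order of paralog number, with 1 point per array, double knockout in red left of single knockout in blue, and a line at each group mean of 3 arrays. Hoxd3 and Hoxd8 have no overlap between groups, the lowest Hoxd3 value is 6.25 in double knockout replicate 1, and Hoxd10 to Hoxd13 all lie below 5.4.

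The high-numbered genes were dim, as Hoxd10 to Hoxd13 ranked between the 7.99th and 27.9th percentiles of brightness among all genes. RMA compresses differences near background, and whether these genes were above background was not tested. Hoxd10, which acts in hindlimb motor neurons, read 5.28, 4.85 and 5.25 in the double knockout and 5.10, 5.12 and 4.60 in the single knockout. Each genotype had 1 low array, replicate 2 of the double knockout and replicate 3 of the single knockout, and the difference was 0.19 (95% interval -0.25 to 0.62). It was 0.32 without double knockout replicate 2, 0.11 without double knockout replicate 1 and 0.015 without single knockout replicate 3. Hoxd11, a gene of the forearm and kidney, read 3.74, 3.58 and 3.73 in the double knockout, against 3.68, 3.87 and 3.76 in the single knockout. All of its values lay near the bottom of the measured range, which began at 2.64, and it differed by -0.08 (95% interval -0.27 to 0.10).

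Hoxd12 and Hoxd13 act in the digits and the tail end of the body. Hoxd12 read 4.18, 4.36 and 4.51 in the double knockout, against 4.25, 4.33 and 4.39 in the single knockout. The single knockout arrays lay inside the range of the double knockout arrays, with a difference of 0.02 (95% interval -0.20 to 0.25). Hoxd13 read 5.15, 5.18 and 5.32 in the double knockout and 4.95, 5.26 and 4.93 in the single knockout. Only single knockout replicate 2 reached the double knockout values, and the difference was 0.17 (95% interval -0.08 to 0.42). A second Hoxd13 probe set did not share it, with 4.87 to 5.13 in the double knockout against 4.74 to 5.27 in the single knockout and a difference of -0.0043.

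**Figure D2:**
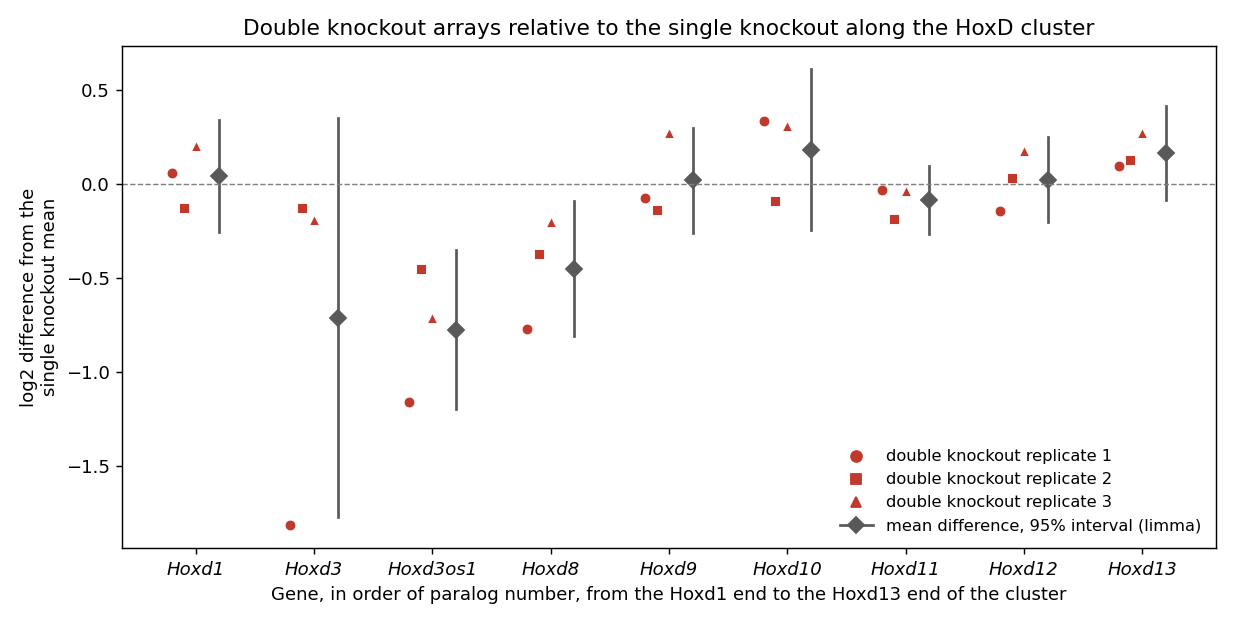
Each double knockout array relative to the single knockout mean (log2 difference, vertical axis) for the 8 HoxD genes and Hoxd3os1, with red points for replicates 1 to 3 and grey diamonds for the mean difference with its 95% limma interval. All 3 arrays lie below 0 at Hoxd3, Hoxd3os1, Hoxd8 and Hoxd11, and the intervals of Hoxd3os1 and Hoxd8 lie below 0 before any adjustment for multiple tests.

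As a set, 3 of 8 HoxD genes had a lower mean in the double knockout, Hoxd3, Hoxd8 and Hoxd11, where 53.8% of all genes did. The median difference was 0.02, beside -0.0093 over all genes. Without double knockout replicate 1 the count was again 3, with a median of 0.05. Without double knockout replicate 3 it was 6 of 8, with a median of -0.08. At an unadjusted limma p below 0.05 there was 1 gene, Hoxd8, and 2 of 8 genes had groups that did not overlap with the double knockout below, against 6.6% of all genes. With so few members these shares lie within 1 or 2 genes of the background.

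The samples were whole embryos, so that fewer cells of a type and less RNA per cell cannot be told apart. Tissue markers lay farthest from the single knockout in double knockout replicate 1, the array with the lowest Hoxd3 and Hoxd8. The 6 somite markers averaged -1.39, -0.28 and -0.28 relative to the single knockout in double knockout replicates 1 to 3. All 6 had a lower mean, also without double knockout replicate 1, and their summed signal was 1203 to 1789 in the double knockout against 1825 to 2191 in the single knockout. The 6 measured markers of hindbrain and neural tube averaged -1.34, -0.02 and 0.05, with 3 of 6 higher (5 of 6 without replicate 1). Their sums were 3139 to 5054 in the double knockout against 4258 to 4724 in the single knockout. These averages hide opposite members: without replicate 1, Zic1, the 1 lower marker, differed by -1.39 and Egr2 by 0.76. Tail bud markers averaged 0.55, -0.21 and -0.01, with 2 of 5 higher (1 of 5 without replicate 1) and sums of 1443 to 2710 in the double knockout against 1558 to 1722 in the single knockout.

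On average, markers of the epiblast, the yolk sac endoderm and the placenta were higher in double knockout replicate 1. Those of primitive red cells were lower. Not every marker followed the average: the epiblast marker Tdgf1 read 5.87 in that array, against 6.52 to 6.85 in the single knockout. The placental marker Tpbpa, at 4.44, lay within the single knockout range. Counts of higher markers refer to group means. Epiblast markers averaged 1.51, 0.40 and 0.52 in double knockout replicates 1 to 3, with 6 of 6 higher (6 of 6 without replicate 1) and sums of 3050 to 7134 in the double knockout against 2540 to 2907 in the single knockout. Yolk sac endoderm markers averaged 2.84, -0.12 and -0.27, with 8 of 8 higher (1 of 8 without replicate 1) and sums of 6396 to 37971 in the double knockout against 6338 to 8901 in the single knockout. Placental markers averaged 2.15, -0.09 and -0.07, with 4 of 5 higher (2 of 5 without replicate 1) and sums of 97.5 to 569 in the double knockout against 97.7 to 115 in the single knockout. Primitive red cell markers averaged -4.56, 0.18 and -2.36, with 0 of 6 higher (0 of 6 without replicate 1) and sums of 249 to 34353 in the double knockout against 23358 to 33714 in the single knockout. No marker was at 0, a value that RMA does not give. The part of these tissues in the lower Hoxd3 and Hoxd8 values was not tested.

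Paralogs of the HoxD genes are their sister genes at the same position in the HoxA, HoxB and HoxC clusters. Of 16 measured paralogs 13 had a lower mean in the double knockout, as did 53.8% of all genes, with a median difference of -0.31, or -0.22 without double knockout replicate 1. Of the 16, 0 passed the limma test over all genes, 7 had an unadjusted p below 0.05 (4.96% of all genes), and 9 had groups that did not overlap, all with the double knockout below (6.6% of all genes). Hoxa4, Hoxb4 and Hoxc4, which count in each of these tallies, are paralogs of Hoxd4, which had no value of its own. The paralogs and the measured HoxD genes therefore do not cover the same paralog groups. The smallest p-values belonged to Hoxc9 (-0.71, SE 0.17) and Hoxa3 (-0.27, SE 0.07), each at an adjusted p of 0.872.

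Hoxd9 was set against its paralogs after the values had been seen, and the adjustment given below does not cover that choice. In the double knockout it differed from them by more than the single knockout arrays differed among themselves, with a wide spread between the double knockout arrays. Hoxa9, Hoxb9 and Hoxc9 had differences of -1.10, -0.51 and -0.71, or -0.50, -0.21 and -0.51 without double knockout replicate 1, beside 0.02 and 0.07 for Hoxd9. Hoxd9 minus the mean of these paralogs, set to 0 at the single knockout mean, was 1.43, 0.31 and 0.64 in double knockout replicates 1 to 3. It was 0.01, 0.04 and -0.04 in single knockout replicates 1 to 3. The mean shift was 0.79 ± 0.57 (SD, n = 3; exact two-sided permutation p = 0.1, the smallest possible; adjusted p = 0.267 over 8 such contrasts), or 0.48 without double knockout replicate 1.

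The difference of Hoxd8 was more negative than that of Hoxd9 and less negative than that of its measured paralog Hoxc8. Hoxd8 minus Hoxd9 was -0.70, -0.24 and -0.48 in double knockout replicates 1 to 3, against 0.02, 0.02 and -0.03 in the single knockout (exact permutation p = 0.1, adjusted p = 0.267). Hoxc8 differed by -1.29, or -0.65 without double knockout replicate 1. Hoxd8 minus Hoxc8 shifted by 0.84, with 1.80, 0.32 and 0.40 in the double knockout and -0.15 to 0.18 in the single knockout (exact permutation p = 0.1, adjusted p = 0.267). The shift against Hoxd9 was -0.36 and that against Hoxc8 was 0.36 without double knockout replicate 1. No contrast could pass a threshold of 0.05, adjusted or not, as 0.1 is the smallest exact permutation p that 3 against 3 arrays allow. Both Hoxd8 contrasts were chosen after the values had been seen. Hoxd8 had the smallest and Hoxd9 the largest unadjusted limma p of the HoxD genes, so their contrast is no independent test.

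The other paralog contrasts overlapped between genotypes. Hoxd3 minus the mean of Hoxa3 and Hoxb3 was -1.23, 0.10 and 0.06 in double knockout replicates 1 to 3, and -0.06 to 0.08 in the single knockout. The Hoxb3 difference was -0.44 with all arrays and -0.26 without double knockout replicate 1, and all double knockout arrays of Hoxa3 and Hoxb3 lay below the single knockout. For Hoxd1 against Hoxb1, Hoxd10 against Hoxa10 and Hoxc10, Hoxd11 against Hoxa11 and Hoxd13 against its 3 paralogs, the shifts were -0.21, 0.22, -0.39 and 0.27 (exact permutation p = 0.2 to 0.4). They were -0.05, 0.10, -0.41 and 0.33 without double knockout replicate 1, and the Hoxd3 contrast was 0.08. These contrasts were chosen after the values had been seen. Paralog group 12 had no measured partner of Hoxd12.

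**Figure D3:**
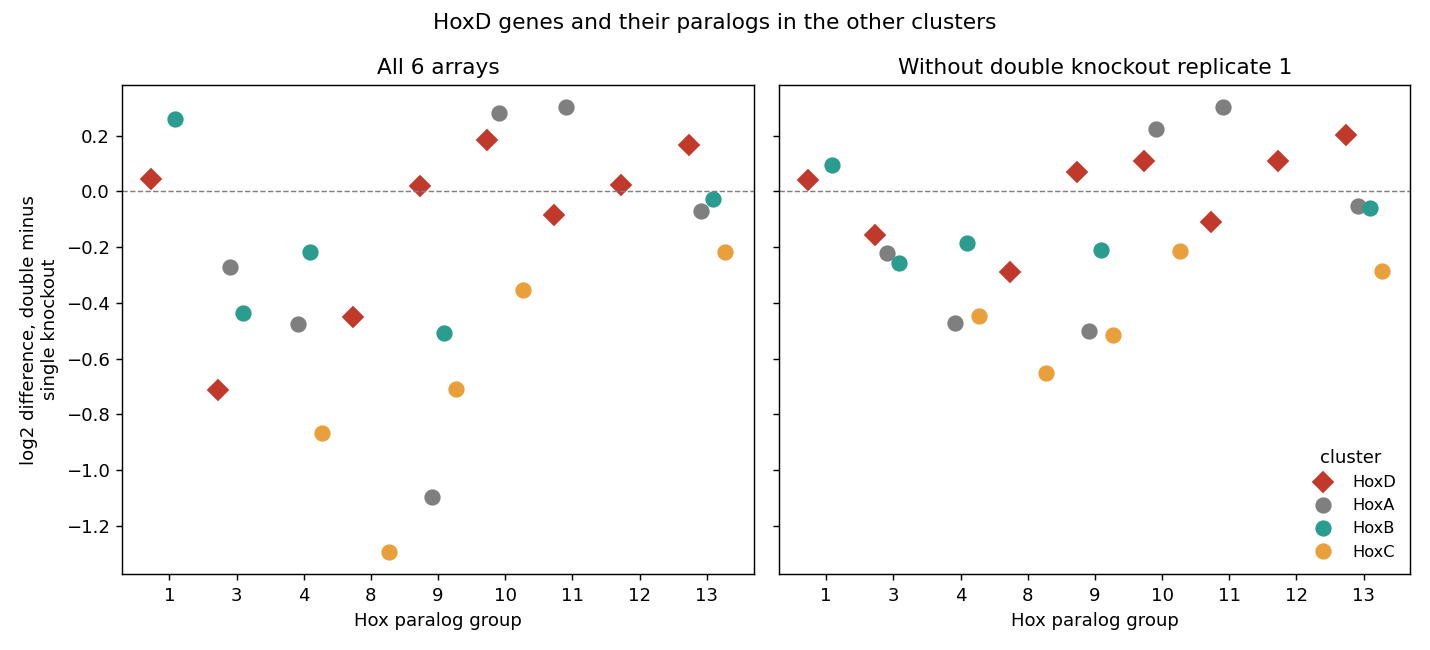
Log2 difference, double minus single knockout (vertical axis), of the measured HoxD genes (red diamonds) and of the measured paralogs in HoxA, HoxB and HoxC (circles) by paralog group. All 6 arrays are on the left, and double knockout replicate 1 is left out on the right. Hoxa4, Hoxb4 and Hoxc4 have no diamond beside them, as Hoxd4 had no probe set of its own, and Hoxd12 has no circle beside it. In group 9, Hoxd9 lies at 0.02 and 0.07 in the panels, above Hoxa9, Hoxb9 and Hoxc9.

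Of 9 measured genes listed as chromosomal neighbours of the HoxD cluster, Hoxd3os1 included, 4 were lower, with a median of 0.01. The list was not limited to genes that border the cluster, and 0 of its genes passed the limma test over all genes. With double knockout replicate 1 left out, 6 of 9 were lower, with a median of -0.03. After Hoxd3os1 the smallest unadjusted p was that of Atf2 (0.12, SE 0.07), a transcription factor gene. Evx2, the homeobox gene next to Hoxd13, differed by 0.07 (SE 0.06), and Mtx2, beyond Hoxd1, by -0.01 (SE 0.06).

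Known partners and regulators of Hox genes did not pass the limma test in any list. The TALE cofactors, which bind DNA together with Hox proteins, lay lower in 8 of 8 cases, where 53.8% of all genes did. Their differences ran from -0.20 to -0.02, with a median of -0.06 and no unadjusted limma p below 0.05. Meis1 differed by -0.20 (SE 0.10) and Pbx2 by -0.09 (SE 0.06). Leaving out double knockout replicate 1 gave -0.10 for Meis1 and -0.05 for Pbx2. Of the cofactors, 7 of 8 were lower without that array, with a median of -0.02. Signals and regulators of the trunk and tail bud were split, 6 of 12 lower with a median of -0.01, or 8 of 12 and -0.02 without that array. Among them Fgf8 differed by -0.19 (SE 0.12) or -0.07 without that array, and Cdx1, a direct activator of Hox genes, by 0.73 (SE 0.54) or 0.08 without double knockout replicate 1. Polycomb, Trithorax and CTCF genes, which set the chromatin of the Hox clusters, were lower for 9 of 14 with a median of -0.02. Without that array 6 of 14 were lower and the median was 0.01. The smallest p-values there were those of Phc2 (-0.17, SE 0.10) and Kdm6a (0.26, SE 0.16), which differed by -0.07 and 0.17 without that array.

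Genes most like a HoxD gene in pattern were found by the Euclidean distance between profiles over the 6 arrays, each centred on its own mean, for the 3 HoxD genes with the widest range. For Hoxd3 they were Cavin1, Foxd1 and Mylk, at distances of 0.17, 0.22 and 0.23, where the median gene lay at 1.63. All 3 shared the low double knockout replicate 1, which for Foxd1 read 7.75 against 9.55 and 9.45 in double knockout replicates 2 and 3. For Hoxd8 they were Nav1, Tnik and Homer3, at 0.11, 0.11 and 0.16, with a median over genes of 0.73. Nav1 read 8.81, 9.24 and 9.29 in the double knockout and 9.56, 9.59 and 9.39 in the single knockout. For the dim Hoxd10 they were Rpe65, Kcnj15 and Gm15523, at 0.09, 0.18 and 0.19, with a median of 0.62.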

How the data were processed

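The authors deposited 1 table of log2 values made with RMA, per the submitters' processing notes. Values ran from 2.64 to 15.17. The sources used here give neither the RMA version nor the probe definitions. Of 45101 probe sets, 34945 had 1 gene symbol in the platform annotation. Each of 18193 genes was represented by its brightest probe set.

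Genotypes were compared with limma 3.58.1 under R 4.3.3 (lmFit, eBayes, two-sided, all 6 arrays), with Benjamini-Hochberg adjustment over all genes and a threshold of 0.05. Intervals are 95% limma intervals before adjustment. The script was tested on simulated data. The number of arrays limits the precision.

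All HoxD genes were named. From each of 5 further lists came its counts and the 2 smallest p-values, and paralogs or neighbours of a member. The 7 marker lists were summed per array after undoing the log. Members, lists and tests were chosen with earlier results of these data known. Alternatives were 14 settings. Deviations from the group mean correlated at 0.09, -0.04 and -0.13 for same-numbered arrays, and at -0.15 to 0.28 for differently numbered arrays. With 3 arrays per group these values cannot settle whether the numbers pair the arrays, and the labels do not say.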

Additional observations from a re-analysis of the deposited data

How the results depend on the processing

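No HoxD gene passed the adjusted threshold under any of the 14 alternatives. Hoxd3, Hoxd8, Hoxd10, Hoxd11 and Hoxd13 kept their direction in each alternative that measured them, with Hoxd8 between -0.57 and -0.29 and Hoxd3 between -1.004 and -0.16. Leaving out single arrays turned the sign of 3 small differences, over ranges of -0.050 to 0.14 for Hoxd1, -0.11 to 0.10 for Hoxd9 and -0.055 to 0.11 for Hoxd12. Over the same settings 3 to 6 HoxD genes were lower, their median ran from -0.080 to 0.059, and 0 to 1 genes passed over all genes. That count was 0 with the mean of the probe sets of a gene and 2, each a probe set of Fzd2, with all probe sets tested. Array weights moved Hoxd3 to -0.33. With dim genes left out, Hoxd10 to Hoxd13 could not be tested. With the replicate number as a block, 1 gene passed and 3 HoxD genes were lower, with a median of 0.02. The brightness of the probe sets limits what can be said of Hoxd10 to Hoxd13.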
